A study of Mus musculus with 15 samples.

Results

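The data described here compare GL261 gliomas of mice that received 200 µg per dose of an antibody against VEGF-A with those that received 100 µg per dose. GL261 is an established mouse glioma line, grown here in the brains of C57BL/6 mice, and the antibody, B20.4.1.1, is a monoclonal antibody that binds the VEGF-A protein. Membership was set by the sample titles, which place 3 libraries at 100 µg and 3 at 200 µg, 6 of the 15 libraries of the study. The other libraries came from untreated tumors, from tumors at 50 µg per dose and from healthy brain, 3 each, and the untreated tumors serve below as the reference against which a response is measured. Every treated group shared one schedule, an injection every 3 days from day 10 after implantation to the endpoint, and the labels give only the amount per injection as different. Tumors were taken after perfusion with saline and frozen, and whole-tissue RNA was sequenced. Mouse age and sex, the endpoint day and whether each library came from a mouse of its own are not given in the sources used here, so the p-values measure only the spread between these samples. No transcript serves as a check of the dose, because the antibody binds a protein. In bulk tissue, fewer cells of a type and less RNA per cell cannot be told apart.

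VEGF-A is the main growth factor of the blood vessel lining. It signals through the receptor VEGFR2 (Kdr) on endothelial cells, with VEGFR1 (Flt1) acting largely as a trap and the neuropilins Nrp1 and Nrp2 as co-receptors, and it drives the tip cells that lead new sprouts. Blocking it prunes tumor vessels, which can leave tumor cells short of oxygen and nutrients. Cells short of amino acids switch on the transcription factor ATF4, whose targets import and make amino acids and supply cysteine for glutathione. A dose comparison asks whether such responses are already complete at the lower amount or still rise with more antibody.

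The labels and the libraries disagreed at replicate 3. An agent tag carried by most tumor samples names the next higher dose for replicate 3 of the untreated, 50 µg and 100 µg groups. It is missing for 200 µg replicate 3, so 3 libraries have a tag that goes against their title. The library titled 100 µg replicate 3 is one of these, and its tag reads 200 µg. Across genes its profile correlated with 100 µg replicates 1 and 2 at r = 0.841 and 0.846, and with the 200 µg replicates at 0.905, 0.907 and 0.915, whereas 100 µg replicates 1 and 2 correlated at 0.909 with each other. The authors' transcripts were assembled separately for each library, and some genes were listed in several pieces, that is, as assembled transcripts with separate spans. That was so for 7.27% of genes in 100 µg replicate 3 and for 8.17, 9.29 and 8.55% at 200 µg, against 16.6 and 20.2% in 100 µg replicates 1 and 2 and 17.6 to 37.9% in the other tumor libraries. The deposited read coverage per unit of FPKM, the authors' length- and depth-scaled abundance, was 8.90, 9.23 and 8.95 at 100 µg and 10.1, 13.2 and 9.45 at 200 µg. The titles define the groups throughout, and results are given both with and without this library.

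**Figure D1:**
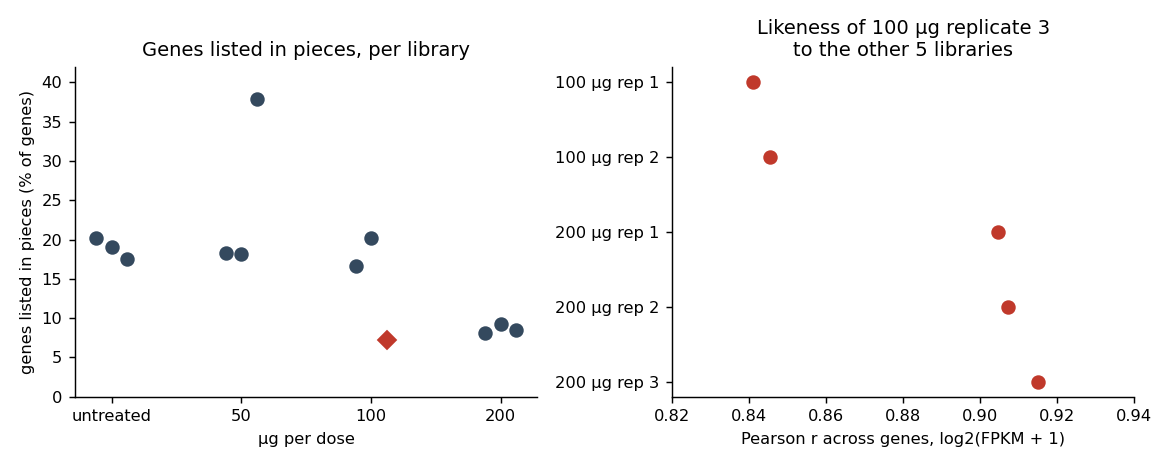
Left, the share of genes listed in pieces in each of the 12 tumor libraries (points) by dose group; right, Pearson correlation across genes of 100 µg replicate 3 with the other 5 libraries of the comparison. The red diamond marks 100 µg replicate 3, which lay at 7.27%, below the 16.6 and 20.2% of its own group, and correlated at 0.905 to 0.915 with the 200 µg libraries.

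Neuronal markers were far below their level in healthy brain in every library of the comparison, and those of dividing cells above it. The summed level of 16 neuronal markers was 41.2, 51.7 and 36.3 FPKM at 100 µg and 31.2, 22.7 and 31.5 FPKM at 200 µg, against 2001, 1733 and 1611 FPKM in healthy brain. The mitosis genes summed to 293, 415 and 503 FPKM at 100 µg and 619, 582 and 302 FPKM at 200 µg, and to 13.2, 7.93 and 15.5 FPKM in healthy brain. Astrocyte markers summed to 178, 234 and 123 FPKM at 100 µg and 168, 190.3 and 134 at 200 µg, below the 761, 926 and 597 FPKM of healthy brain. Oligodendrocyte precursor markers summed to 1255, 743 and 595 FPKM at 100 µg and 452, 496 and 593 at 200 µg, above the 242, 217 and 140.5 FPKM there.

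Few genes separated the 200 µg from the 100 µg libraries one by one. Of 14014 genes tested with limma on log2(FPKM + 1), 6 passed an adjusted p of 0.05 (0.0428%), 5 higher (0.0357%) and 1 lower (0.00714%) at 200 µg. At an unadjusted p under 0.05, 743 genes were higher (5.3%) and 504 lower (3.6%), and the groups of 3 did not overlap for 1036 genes higher (7.39%) and 833 lower (5.94%) at 200 µg. The median change over all genes was 0.04 on the log2 scale. All changes below are differences of log2(FPKM + 1), which understate the change of low genes.

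None of the 6 genes that passed could be read free of a neighbor or a near copy. Gm12191 (chr11:49678710-49679057 on mm10), a pseudogene near-identical to the pseudogene Rpl30-ps9, was at 37.3, 54.6 and 57 FPKM at 100 µg and was listed at 0 in all 3 libraries at 200 µg. Pgk1-ps1, a pseudogene of the glycolytic enzyme phosphoglycerate kinase, was listed at 0 in all 3 libraries at 100 µg and at 11.1, 7.08 and 8.04 FPKM at 200 µg. The glycolytic gene Pgk1 itself differed by 0.30 on the log2 scale (adjusted p = 0.66, limma). Rabepk rose from 7.3, 6.31 and 0 FPKM at 100 µg to 109.8, 65.7 and 118 FPKM at 200 µg, but in all 3 libraries at 200 µg its whole value came from transcripts that also covered the adjoining chaperone gene Hspa5. In no library at 100 µg did such a transcript supply as much as 25% of it. Gm15760 likewise went from 1.02, 0.939 and 0.937 to 9.1, 15.9 and 6.84 FPKM, with its whole value at 200 µg carried by transcripts that ran on from Ap2m1. Dennd2d went from 0.731, 0.491 and 0.683 to 4.56, 4.19 and 2.81 FPKM on transcripts shared with Cept1. Tnk1 went from 0.17, 0.27 and 0.112 to 3.7, 3.65 and 2.61 FPKM on transcripts shared with Plscr3 at both doses. Transcripts that joined neighboring genes supplied at least 25% of the value of 21.4, 19.5 and 23.1% of tested genes at 100 µg and 23.1, 23.9 and 21.8% at 200 µg.

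The count of genes that passed rested on 100 µg replicate 3. Without it, 673 of 14012 genes passed (4.8%), 487 higher (3.48%) and 186 lower (1.33%) at 200 µg, 476 of them free of neighbors and copies, and the 6 genes above were among them. Leaving out any other single tumor library left between 1 and 7. Grouped by the agent tag in place of the title, 1561 genes passed, none of them among the 6. Which label of that library is right was not tested and cannot be settled from its own values.

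To ask which responses keep growing, responding genes were chosen on the mean of the 100 and 200 µg groups against untreated tumor. With equal groups, and if libraries vary independently, this contrast is independent of the difference between the doses. A property shared by 100 µg replicate 3 and the 200 µg libraries, such as few genes in pieces, would enter both in the same direction. By this contrast 251 genes responded (1.79%), 190 higher (1.36%) and 61 lower (0.435%) than in untreated tumor. With a term that sets apart 100 µg replicate 3 and the 200 µg libraries, 69 genes responded. Taken alone against untreated tumor, 100 µg gave 13 genes (0.0928%), 11 higher (0.0785%) and 2 lower (0.0143%). At 200 µg there were 475 (3.39%), 337 higher (2.4%) and 138 lower (0.985%). The 251 rested on single libraries: 35, 28 and 29 genes responded without untreated replicates 1, 2 and 3, 154 and 549 without 50 µg replicates 2 and 3, 95 and 142 without 100 µg replicates 1 and 2, and 45 and 48 without 200 µg replicates 1 and 2. The untreated libraries are shared by all of these contrasts, so the counts are not independent of each other.

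As a group the responses were larger at 200 µg. Among the 190 genes that rose, the median difference from untreated tumor was 0.23 at 50 µg, 0.89 at 100 µg and 1.27 at 200 µg on the log2 scale, and the median change from 100 to 200 µg was 0.34, against 0.04 for all genes. For the 61 genes that fell, those medians were -0.32, -0.98 and -1.33, and the median change from 100 to 200 µg was -0.30. Both sets were chosen on their values at 100 and 200 µg, which favors large differences there more than at 50 µg. The size of the change from 50 to 100 µg therefore cannot be read from these medians. Without 100 µg replicate 3 the median changes were 0.34 and -0.26. With the term that sets apart that library and the 200 µg libraries they were 0.30 and -0.18. Of the genes that rose, 83 had all 3 libraries at 200 µg above all 3 at 100 µg (background 7.39%) and 3 had them all below (background 5.94%). Of the genes that fell, 17 had all 3 libraries at 200 µg below and 1 had them above. For the middle gene of those that rose, the difference from untreated tumor at 100 µg was 71.2% of that at 200 µg (quartiles 59.5 and 86.9%). For the middle gene of those that fell it was 80.8% (65.9 and 97.8%). In 31 genes that rose and 14 that fell it was over 100%, so that the response at 100 µg was at least as large.

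**Figure D2:**
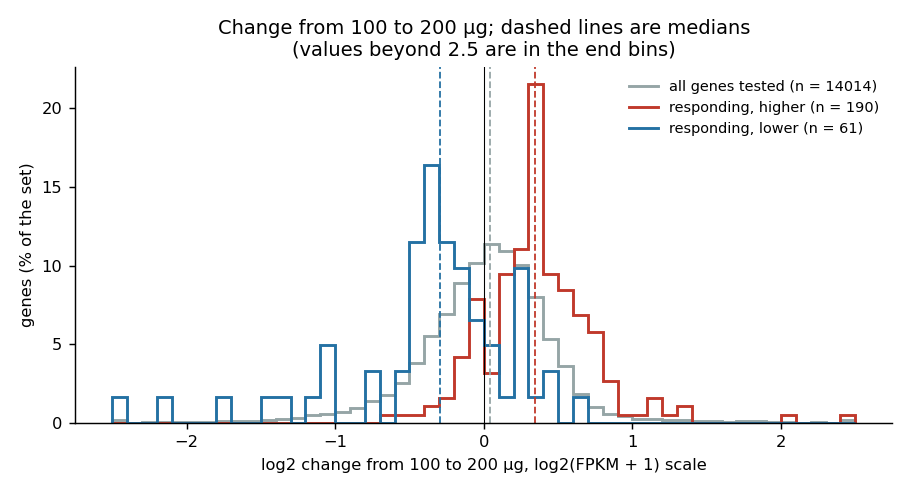
Distribution of the log2 change from 100 to 200 µg in bins of 0.1, as a percentage of each set, for all 14014 genes tested (grey), the 190 responding genes that rose (red) and the 61 that fell (blue). The dashed medians lie at 0.04, 0.34 and -0.30.

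Single genes could rarely be placed. A response was called growing where its change from 100 to 200 µg passed the test in the direction of the response. Where that change passed in the other direction it was called receding. It was called bounded where the 95% interval of that change lay within 1.5-fold either way in FPKM + 1. In FPKM alone the same bound is wider, the more so for low genes. Of the 190 genes that rose, 1 was growing (Gm15760, named above with its joined transcripts), 24 bounded, none receding and 165 undetermined. Of the 61 that fell, 1 was growing (the pseudogene Gm12191), 6 bounded and 54 undetermined. With the bound widened to 2-fold, 120 and 36 were bounded. At an unadjusted p under 0.05, 49 of the genes that rose were higher at 200 than at 100 µg and none lower. Of those that fell, 10 were lower and none higher (background 5.3% higher and 3.6% lower). The choice of responding genes and this change share each gene's estimate of spread. Choosing by a low p favors genes with a small estimate, so these counts and those of bounded genes lean high. Without 100 µg replicate 3, 15 and 6 of these same responding genes passed at an adjusted p under 0.05 in the direction of their response (background 3.48% higher and 1.33% lower), and none against it. With the responding genes chosen anew without that library, 30 were growing and 8 receding. The groups are then unequal, so this choice is not independent of the change between doses and leans toward receding. The count of bounded genes fell to between 2 and 20 when 1 untreated library, 50 µg replicate 1 or 2, 100 µg replicate 1 or 2 or any 200 µg library was left out, and was 100 without 50 µg replicate 3.

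Since only these 2 met the test, the genes described next were chosen after their values were seen, as responding genes free of neighbors and copies whose own 95% interval between the doses lay off 0. Ceruloplasmin (Cp, chr3:19957054-20009145), the copper-carrying ferroxidase that lets iron leave cells, was 3.28, 2.39 and 5.01 FPKM untreated, 3.99, 4.06 and 3.85 at 50 µg, 13.7, 10.9 and 16.7 with 100 µg and 26.4, 23.3 and 22.2 with 200 µg. No library at 200 µg overlapped those at 100 µg, and none at 100 µg overlapped the untreated ones. Its response passed (mean of both doses 2.10, adjusted p = 0.0016, limma), and its change from 100 to 200 µg was 0.77 (95% interval 0.29 to 1.26, adjusted p = 0.55, limma), or 0.92 without 100 µg replicate 3 (adjusted p = 0.054). Dmrta1, a DM-domain transcription factor gene, was 2.25, 2.3 and 1.06 FPKM untreated, 4.5, 5.39 and 3.68 at 100 µg and 10.5, 13.2 and 7.22 at 200 µg, with no overlap among these 3 groups and a change from 100 to 200 µg of 1.01 (0.47 to 1.56). At 50 µg both genes lay within the untreated range, Dmrta1 at 1.71, 2.11 and 2.21 FPKM.

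Others of these responding genes were also higher at 200 than at 100 µg without overlap. Thrombospondin 2 (Thbs2), a matrix protein known to restrain vessel growth, was 41.1, 53 and 53.7 FPKM at 100 µg and 82.2, 94.2 and 75.6 FPKM at 200 µg from 37.3, 30.8 and 28 FPKM untreated. Adamts1, a matrix protease that cuts proteoglycans, was 43.1, 49.4 and 65.7 FPKM at 100 µg and 90.1, 76.8 and 79.2 FPKM at 200 µg. Syndecan 2 (Sdc2), a heparan sulfate proteoglycan of the cell surface, was 15.4, 16.7 and 24.5 FPKM at 100 µg and 27.8, 34.3 and 33 at 200 µg. Stomatin (Stom), a membrane scaffold protein, was 10.3, 11.5 and 11 FPKM at 100 µg and 21, 23.6 and 14.2 at 200 µg. Their changes from 100 to 200 µg lay between 0.65 (Adamts1) and 0.76 (Thbs2) with intervals above 0, while the adjusted p was 0.53 for Thbs2 and 0.55 for Sdc2 (limma), so neither passed. Sdc2 and Adamts1 passed without 100 µg replicate 3, with changes of 0.93 and 0.81. In both, that library was the highest of the 100 µg group.

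The wider group that passed without 100 µg replicate 3 held other named functions. Among the 15 genes that rose were Mmp12, the macrophage metalloelastase (1.71, 1.29 and 0.619 FPKM at 100 µg and 5.21, 4.04 and 3.07 at 200 µg), Mr1, an MHC-like molecule that presents vitamin B metabolites (0.969, 0.989 and 1.39 FPKM at 100 µg and 2.81, 2.97 and 1.96 at 200 µg), the amyloid precursor relative Aplp2 (36.6, 36.8 and 49.2 FPKM at 100 µg and 63.2, 69.3 and 58.7 at 200 µg), the clock repressor Nr1d2 (11.5, 14.4 and 21.5 FPKM at 100 µg and 28.3, 29.8 and 24.4 at 200 µg) and Calcrl, the receptor for CGRP and adrenomedullin (5.13, 5.66 and 11.7 FPKM at 100 µg and 11.8, 8.94 and 12.5 at 200 µg). For Mmp12, Mr1, Aplp2 and Nr1d2 the groups did not overlap even with that library included, and for Calcrl it lay inside the 200 µg range. Among the 6 that fell were Mrps28, a subunit of the mitochondrial ribosome (26.3, 21.3 and 16.8 FPKM at 100 µg and 3.98, 3.24 and 4.42 at 200 µg), and Tubb3, a tubulin of neurons that glioma cells also express (16.7, 19.8 and 11.2 FPKM at 100 µg and 7.99, 7.26 and 6.15 at 200 µg). These genes were named after their values were seen.

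**Figure D3:**
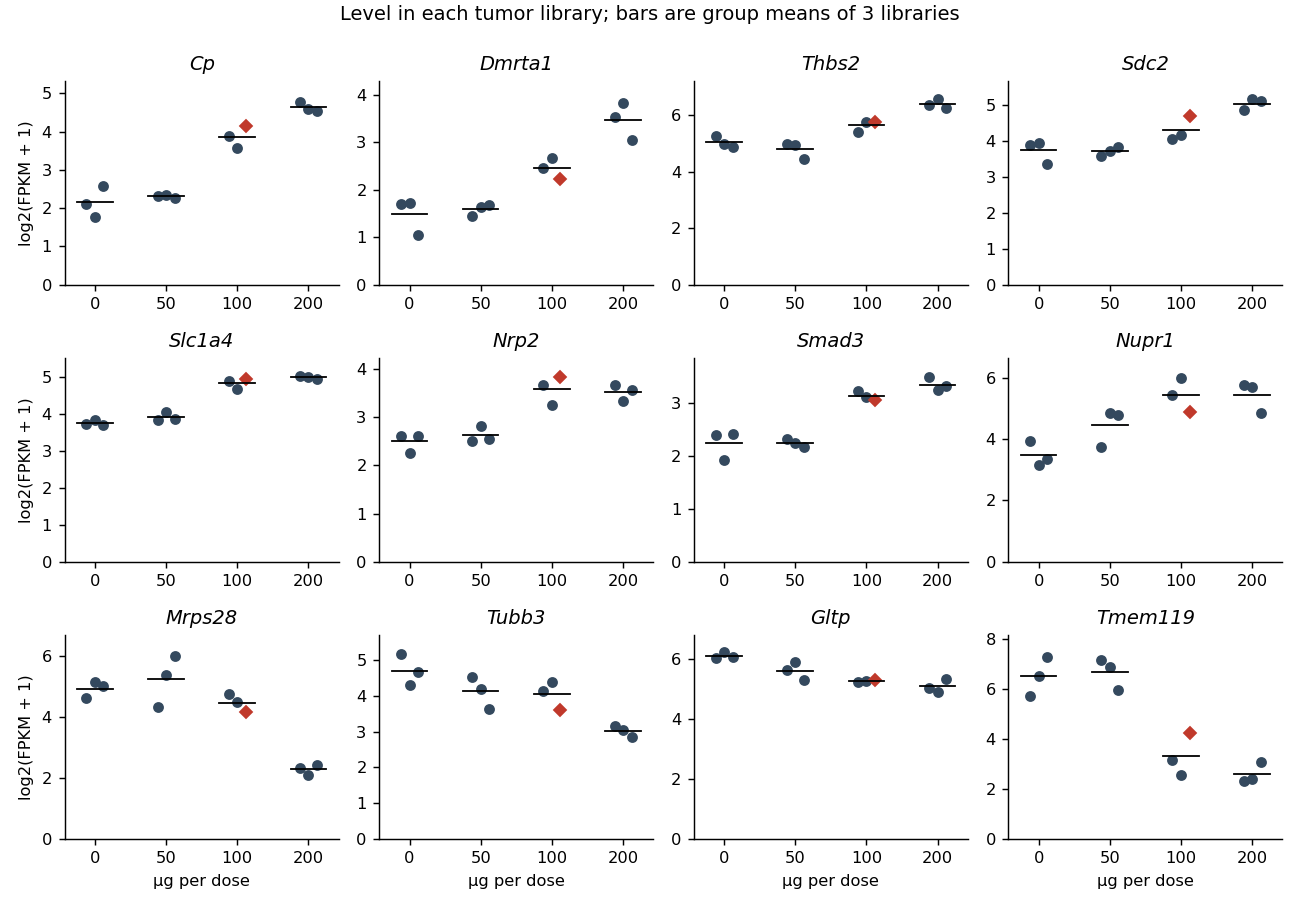
Level of 12 responding genes in each tumor library on the log2(FPKM + 1) scale against antibody dose, with bars for group means of 3 libraries and a red diamond for 100 µg replicate 3. Cp, Dmrta1, Thbs2, Sdc2, Mrps28 and Tubb3 differ between 100 and 200 µg without overlap, while Nrp2, Nupr1, Gltp and Tmem119 overlap.

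Responses whose further change was bounded at 100 µg included a co-receptor of VEGF and a neutral amino acid carrier. Neuropilin 2 (Nrp2, chr1:62703285-62818695) was 5.13, 3.79 and 5.15 FPKM untreated, 4.67, 6.01 and 4.88 at 50 µg, 11.8, 8.59 and 13.3 with 100 µg and 11.7, 9.15 and 10.9 with 200 µg. It responded (mean of both doses 1.06, adjusted p = 0.02, limma), and its change from 100 to 200 µg was -0.06 with an interval of -0.49 to 0.36, which excludes a further rise of 1.5-fold. Slc1a4 (chr11:20302180-20332713), which carries alanine, serine and cysteine, was 12.1, 13.2 and 11.9 FPKM untreated, 13.2, 15.6 and 13.6 at 50 µg, 28.7, 24.4 and 29.5 with 100 µg and 31.7, 30.9 and 29.9 with 200 µg. The 200 µg libraries lay just above those at 100 µg, and the change of 0.16 (-0.15 to 0.47) left 86.9% of the response at 200 µg in place at 100 µg. Smad3, which carries TGF-β signals to the nucleus, was 8.32, 7.56 and 7.33 FPKM at 100 µg and 10.1, 8.39 and 8.97 at 200 µg from 4.22, 2.78 and 4.29 untreated, a change between doses of 0.22 (-0.15 to 0.58).

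Other bounded genes spanned fatty acid, signaling and cell surface functions. Acot2, a mitochondrial acyl-CoA thioesterase, was 11.6, 11.1 and 13.7 FPKM at 100 µg and 12.6, 10.3 and 11.7 FPKM at 200 µg. The surface glycoprotein gene Cd24a stood at 4.18, 3.04 and 2.41 FPKM at 100 µg and 3.29, 2.71 and 2.88 at 200 µg. Spry2, a feedback inhibitor of receptor tyrosine kinases, was at 61.4, 65.5 and 41 FPKM at 100 µg and 59.8, 61.9 and 52.7 at 200 µg. Their untreated levels were 5.11, 5.56 and 6.84 FPKM (Acot2), 1.1, 1.11 and 1.31 FPKM (Cd24a) and 36.5, 32.3 and 25.7 FPKM (Spry2), below every library at 100 and 200 µg. Of the genes that fell, 3 without a neighbor or copy were bounded, namely the glycolipid carrier Gltp (63.9, 73.7 and 66.7 FPKM untreated, 36.5, 37.1 and 38.4 at 100 µg, 32.1, 28.8 and 39.4 at 200 µg), the mitochondrial fission factor Mtfp1 (5.02, 3.47 and 6.18 FPKM untreated, 2.02, 2.21 and 2.3 at 100 µg, 2.66, 2.55 and 1.89 at 200 µg) and Gal3st1, which makes the myelin lipid sulfatide (2.14, 3.15 and 2.91 FPKM untreated, 1.39, 1.29 and 1.22 at 100 µg, 1.34, 1.56 and 0.989 at 200 µg). In all, 15 of the 24 bounded genes that rose were free of neighbors and copies. Under alternative processing the bounded call was lost in 1 of 27 settings for Gal3st1, in 3 of 28 for Slc1a4, in 9 of 28 for Nrp2 and in 17 of 28 for Smad3 and for Gltp.

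**Figure D4:**
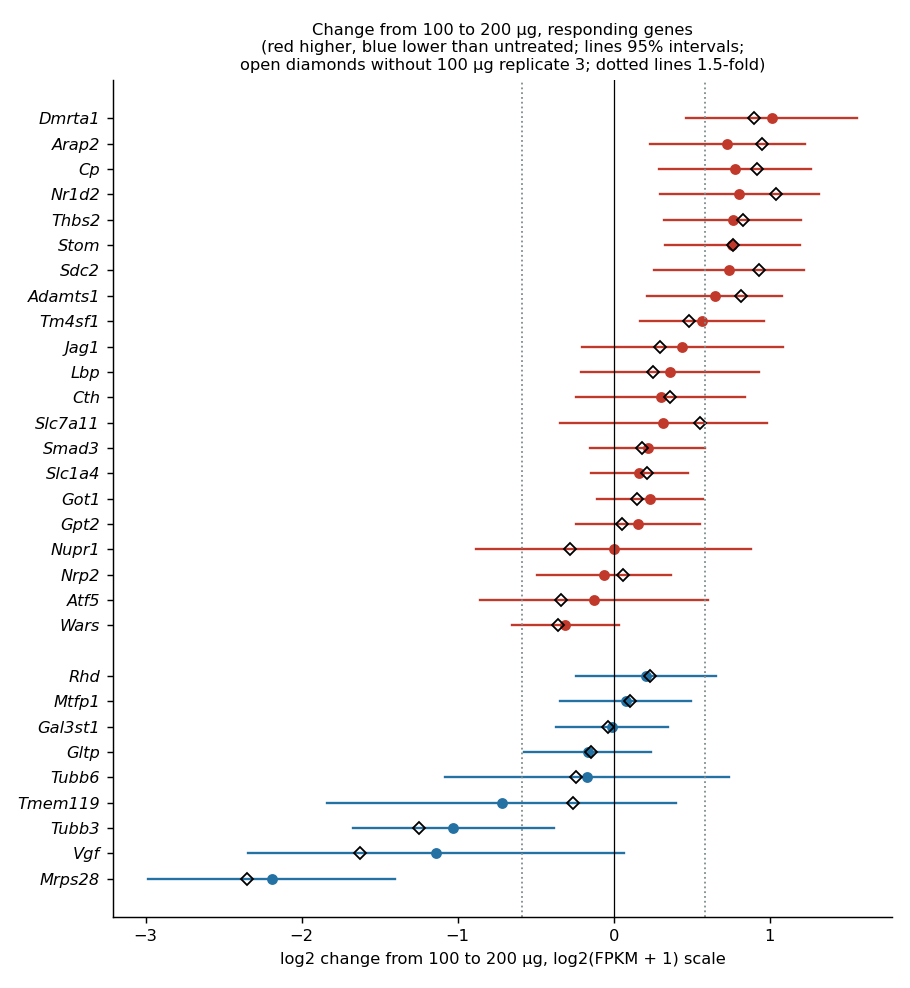
Change from 100 to 200 µg with its 95% interval for 21 genes that rose (red) and 9 that fell (blue) against untreated tumor, on the log2 scale, with open diamonds for the value without 100 µg replicate 3 and dotted lines at 1.5-fold in FPKM + 1. Slc1a4, Got1, Gpt2 and Nrp2 lie within the dotted lines, and the intervals of Dmrta1, Arap2, Cp, Nr1d2, Thbs2, Stom, Sdc2, Adamts1 and Tm4sf1 lie above 0.

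Genes of the amino acid stress response were higher than in untreated tumor at 100 µg by their medians, and the medians at 200 µg were close to those at 100 µg. Over 15 tested ATF4 regulators and stress sensors the median difference from untreated tumor was 0.43 at 100 µg and 0.39 at 200 µg, over 14 genes of serine, one-carbon, asparagine and proline synthesis 0.53 and 0.65, and over 12 amino acid transporters 0.50 and 0.58. The median change from 100 to 200 µg was 0.11, 0.02 and 0.06 in these lists, beside 0.04 for all genes, and 0.05, -0.04 and -0.01 with median-of-ratios scaling. No member of the 3 lists passed between the doses with limma (background 0.0428%), and at an unadjusted p under 0.05 the numbers higher at 200 µg were 2, 1 and 1 (background 5.3%), with none lower. Responding members numbered 4 (Atf5, Cebpg, Nupr1 and Vldlr), 4 (Aldh1l2, which overlaps D10Wsu102e, Asns, Got1 and Gpt2) and 2 (Slc1a4 and Slc7a11), each higher than in untreated tumor (background 1.36%).

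Nupr1, a small stress-induced chromatin protein, was 14.4, 7.82 and 9.28 FPKM untreated, 12.3, 28.2 and 26.9 at 50 µg, 42.3, 63.5 and 28.5 with 100 µg and 53.5, 51.7 and 27.7 with 200 µg. The groups overlapped throughout, and the interval of its change from 100 to 200 µg, -0.88 to 0.88, was too wide for a bound. Atf5, a transcription factor of the same family as ATF4, was 222, 166 and 123 FPKM at 100 µg and 169, 141 and 147 FPKM at 200 µg from 59.6, 50.7 and 44.6 FPKM untreated, a change between doses of -0.12 (-0.86 to 0.61). These groups overlapped too. Cebpg, a dimer partner of ATF4, differed in that all 3 libraries at 200 µg (31.8, 31.2 and 27.6 FPKM) exceeded those at 100 µg (20.9, 21.4 and 23.3 FPKM), and so did asparagine synthetase, Asns (75.4, 75.7 and 95 against 58.6, 59.8 and 67.7 FPKM). Neither passed, with an adjusted p of 0.55 for both (limma). The transaminases Got1 and Gpt2, which move nitrogen between amino acids, were bounded, Got1 at 45.7, 43.7 and 37.2 FPKM at 100 µg and 52.3, 46.8 and 49.9 at 200 µg and Gpt2 at 23.7, 26.2 and 20.1 FPKM at 100 µg and 25.8, 24.7 and 27.3 at 200 µg.

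Of 20 cytosolic tRNA synthetases, which charge amino acids onto tRNA, Wars alone responded, higher than in untreated tumor (background 1.36%). It was 26.3, 24.7 and 28.9 FPKM untreated, 57.8, 49.7 and 48.5 at 100 µg and 46, 41.3 and 38 at 200 µg, with every library at 200 µg below those at 100 µg and a change of -0.31 (-0.65 to 0.03, adjusted p = 0.57, limma). Cars lay in the same order, at 11.9, 12.9 and 12.8 FPKM at 100 µg and 11.2, 10.3 and 8.45 FPKM at 200 µg. Vars and Aars, of which Aars shares transcripts with Exosc6, were lower without overlap as well (background 5.94%), and no member differed at an unadjusted p under 0.05 (background 5.3% higher and 3.6% lower). The list as a whole had 13 positive and 7 negative changes (median 0.07, or 0.18 without 100 µg replicate 3), and the 1 member that passed without that library, Dars, was higher at 200 µg (15.8, 16.3 and 30.4 FPKM at 100 µg and 29.1, 25.5 and 27.7 at 200 µg).

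The promoters of these genes are shown because ATF4 and its partners bind a known sequence, the C/EBP-ATF element, with the core TGATGNAA. RefSeq windows of 300 bases on GRCm38.p6, 250 before and 50 after the annotated start, were matched by symbol for 11 of the 14 responding genes of the 5 lists of amino acid stress and glutathione genes. The core, read on both strands, was present in 6 of the 11 (Asns, Got1, Nupr1, Slc1a4, Slc7a11 and Vldlr), in 15 of the 56 tested members of those lists that had a window, and in 1219 of 27025 genes with a window in the table (4.51%), each gene counted once if any of its windows held it. Counted by window it was in 1304 of 32851 (3.97%). It begins 4 bases before the start in Slc1a4, 102 before in Got1, 110 before in Nupr1, and 66 and 47 before in Slc7a11. The windows of these 4, read 5′ to 3′ on the gene's strand, have each match in capitals. The genes were chosen after their values were seen, and a match shows the letters only.
Slc1a4, chr11:20332664-20332963, minus strand: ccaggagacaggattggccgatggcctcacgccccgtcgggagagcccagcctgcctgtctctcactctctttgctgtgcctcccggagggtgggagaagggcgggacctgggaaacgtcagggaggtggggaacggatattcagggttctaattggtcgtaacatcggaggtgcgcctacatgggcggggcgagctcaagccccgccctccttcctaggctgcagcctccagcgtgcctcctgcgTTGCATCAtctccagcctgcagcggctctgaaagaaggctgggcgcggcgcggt
Got1, chr19:43524556-43524855, minus strand: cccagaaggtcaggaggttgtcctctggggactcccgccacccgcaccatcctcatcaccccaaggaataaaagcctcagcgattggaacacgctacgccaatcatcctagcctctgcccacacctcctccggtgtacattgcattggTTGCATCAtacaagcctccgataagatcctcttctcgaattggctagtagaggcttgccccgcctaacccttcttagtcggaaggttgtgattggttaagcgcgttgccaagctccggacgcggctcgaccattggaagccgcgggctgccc
Nupr1, chr7:126625421-126625720, minus strand: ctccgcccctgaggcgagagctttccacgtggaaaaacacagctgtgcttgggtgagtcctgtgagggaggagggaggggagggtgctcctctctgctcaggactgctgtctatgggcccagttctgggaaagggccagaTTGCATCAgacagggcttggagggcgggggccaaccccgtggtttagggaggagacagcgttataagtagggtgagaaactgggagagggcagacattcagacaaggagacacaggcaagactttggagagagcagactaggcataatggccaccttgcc
Slc7a11, chr3:50443564-50443863, minus strand: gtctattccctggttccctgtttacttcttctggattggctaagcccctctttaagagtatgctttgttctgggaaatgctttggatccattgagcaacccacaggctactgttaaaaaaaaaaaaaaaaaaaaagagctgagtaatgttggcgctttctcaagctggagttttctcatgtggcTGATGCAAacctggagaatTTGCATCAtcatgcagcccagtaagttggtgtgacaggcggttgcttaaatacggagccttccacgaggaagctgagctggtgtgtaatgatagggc

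Of 14 tested genes of cysteine and glutathione supply 4 responded, each higher than in untreated tumor (background 1.36%), and these overlapped between the doses. Slc7a11, the cystine importer, was 0.838, 1.12 and 1.15 FPKM untreated, 1.5, 2.39 and 3.96 at 50 µg, 3.56, 3.07 and 6.02 with 100 µg and 7.77, 4.21 and 4.53 with 200 µg. Cth, which makes cysteine from cystathionine, was 3.04, 2.81 and 4.53 FPKM untreated, 5.96, 9.6 and 10.3 at 50 µg, 11.6, 14.5 and 14.8 with 100 µg and 22, 16.1 and 13.6 with 200 µg, so that 85.2% of its response at 200 µg was present at 100 µg. For both, the 50 µg libraries lay above the untreated ones and the 200 µg group overlapped the 100 µg group. The glutathione transferases Gstm1 (19.1, 9.17 and 9.97 FPKM at 100 µg, 17.9, 12.7 and 10.03 at 200 µg) and Mgst1 (11.2, 10.9 and 10.5 FPKM at 100 µg and 19.9, 14.8 and 7.83 at 200 µg) overlapped too. Over the 14 tested genes of transsulfuration and glutathione the median change between doses was 0.20, with 11 positive and 3 negative, and 1 was higher at an unadjusted p under 0.05 (Gclm; background 5.3%). The 14 tested targets of NRF2, the oxidative stress regulator, had a median of 0.32 between doses, and Me1 (malic enzyme, 15.8, 13.6 and 19.1 FPKM at 100 µg and 33.6, 28.3 and 20.5 at 200 µg) and Srxn1 (sulfiredoxin, 15.3, 14.6 and 18.3 FPKM at 100 µg and 21.2, 20.3 and 22.9 at 200 µg) were higher without overlap, as was glutathione reductase, Gsr (background 7.39%). Pgd, an enzyme of the pentose phosphate pathway, was lower without overlap (10.7, 11.6 and 10.4 FPKM at 100 µg and 10.1, 9.33 and 10.1 at 200 µg; background 5.94%).

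No gene of the VEGF pathway passed between the doses. Of its 10 ligands and receptors 7 were tested, and none passed with limma (background 0.0428%). None had an unadjusted p under 0.05 (background 5.3% higher and 3.6% lower). Every group of 3 overlapped (background without overlap 7.39% higher and 5.94% lower), and Nrp2 alone responded (background 1.36% higher). Vegfa was 57.6, 46.3 and 32 FPKM untreated, 72.7, 40.2 and 42.8 at 100 µg and 51.9, 43.8 and 49.7 at 200 µg, a change of -0.05 (-0.86 to 0.76). The placental growth factor gene Pgf, a VEGFR1 ligand, was 2.72, 1.68 and 1.82 FPKM at 100 µg and 2.68, 4.32 and 2.34 at 200 µg, with a change of 0.40 (-0.26 to 1.07). Vegfb, which shares transcripts with Dnajc4, differed by -0.24 (-0.82 to 0.35). Receptor levels were 1.26, 1.83 and 3.31 FPKM at 100 µg and 2.7, 1.78 and 0.666 at 200 µg for Kdr. They were 3.39, 4.12 and 5.24 FPKM at 100 µg and 5.29, 4.37 and 3.93 at 200 µg for Flt1. The co-receptor Nrp1 was 2.33, 1.54 and 2.18 FPKM at 100 µg and 2.36, 1.63 and 1.91 at 200 µg, with a change of -0.02 (-0.48 to 0.43). The interval of Flt1, -0.31 to 0.48, lies within 1.5-fold in FPKM + 1, while that of Kdr, -0.99 to 0.54, does not.

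Vessel genes had mostly negative changes, none of which passed. Among 18 tested endothelial markers the median change was -0.23, with 12 negative and 6 positive, and for 14 genes of tip cells and sprouting -0.41, with 12 negative. At an unadjusted p under 0.05, 2 and 1 of them were lower (background 3.6%) and none higher. Without 100 µg replicate 3 these medians were -0.13 and -0.27. The tight-junction gene Cldn5 was 45.5, 54 and 34.6 FPKM at 100 µg and 25.9, 34 and 17.7 at 200 µg. The endothelial receptor Tie1 was 3.13, 3.8 and 2.89 FPKM at 100 µg and 2.56, 2.37 and 0.942 at 200 µg. Egfl7, a matrix factor secreted by endothelium, was 6.14, 6.85 and 4.56 FPKM at 100 µg and 4.5, 4.36 and 2.07 at 200 µg. Each was lower in all 3 libraries at 200 µg (background 5.94%), as was Pdgfb, which recruits pericytes (3.24, 3.67 and 2.96 against 2.45, 2.41 and 0.904 FPKM). In all of them 200 µg replicate 3 was the lowest, and for the summed endothelial markers it stood at the bottom of 107, 117 and 74.1 FPKM, against 123, 131 and 119 FPKM at 100 µg. Pericyte and mural markers summed to 122, 109 and 132 FPKM at 100 µg and 148, 134 and 136 at 200 µg, with a median change of -0.10 over 11 genes. Fgf1, an angiogenic growth factor that responded, was higher without overlap at 3.3, 2.43 and 1.96 FPKM against 1.95, 1.75 and 1.61 FPKM at 100 µg.

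Among hypoxia and glycolysis genes, 15 of 24 had a positive change (median 0.13), and at neither dose did the median exceed untreated tumor (-0.38 at 100 µg and -0.27 at 200 µg). Carbonic anhydrase 9 (Car9), a hypoxia marker that shares transcripts with Gm12454, was 4.31, 4.04 and 4.84 FPKM at 100 µg and 8.85, 12 and 6.78 FPKM at 200 µg from 8.92, 5.52 and 5.23 FPKM untreated. The prolyl hydroxylase Egln3 was 3.03, 2.1 and 3.76 FPKM at 100 µg and 3.85, 4.1 and 4.02 at 200 µg. Both were higher at 200 µg than at 100 µg without overlap and overlapped the untreated range at 200 µg. The mitophagy receptor gene Bnip3, which overlaps Gm45507, was higher without overlap too (background 7.39%). The pyruvate kinase gene Pkm, which overlaps Gm49759, was lower without overlap (295, 307 and 309 FPKM at 100 µg and 231, 279.5 and 241 at 200 µg; background 5.94%). None passed (adjusted p = 0.55 for Car9, limma).

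Acute phase and innate sensing genes had a median of 0.33 over 12 tested genes, with 10 positive, and of 0.55 without 100 µg replicate 3. None passed, and 4 were higher at an unadjusted p under 0.05 (Cp, Hp, Cd14 and Tlr4; background 5.3%). Haptoglobin (Hp), which binds free hemoglobin, was listed at 0, 0 and 2.36 FPKM at 100 µg and stood at 4.28, 3.39 and 2.76 FPKM at 200 µg, and it was listed at 0 in all 3 untreated libraries. Cd14, the co-receptor for bacterial lipopolysaccharide, was 16, 13.9 and 17.7 FPKM untreated, 5.29, 6.6 and 8.18 at 100 µg and 11.3, 9.88 and 11.2 at 200 µg, so that every library at 200 µg lay between the other 2 groups. Lbp, which hands lipopolysaccharide to Cd14, responded and overlapped between the doses (8.65, 11 and 7.41 FPKM untreated, 35.7, 27 and 24.5 at 100 µg, 42.5, 33.5 and 36 at 200 µg). Hp passed without 100 µg replicate 3, and so did Tlr4, the receptor that senses lipopolysaccharide (2.86, 3.26 and 6.28 FPKM at 100 µg and 6.26, 5.8 and 6.37 at 200 µg), and in both genes that library was the highest of its group. Iron and copper genes had a median of 0.33 over 16, 13 of them positive, with Cp and the metalloreductase Steap2 (1.53, 1.24 and 1.68 FPKM at 100 µg and 2.64, 1.9 and 1.997 at 200 µg) higher without overlap (background 7.39%).

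Antigen presentation genes had mostly negative changes. Of 11 genes of MHC class I and the immunoproteasome 9 had a negative change (median -0.44), and all 7 tested class II genes did (median -0.33). None passed with limma, and 3 and 1 of them were lower at an unadjusted p under 0.05 (background 3.6%). The class II chain H2-Ab1 was 175, 76.9 and 246 FPKM untreated, 80.5, 129 and 68.9 at 100 µg and 36.2, 41.8 and 39.8 at 200 µg. The class II chaperone H2-DMb1 was 57.7, 61.6 and 60.4 FPKM at 100 µg and 48.4, 50.7 and 48.7 at 200 µg. The immunoproteasome subunit Psmb10 was 55.5, 78.6 and 61.6 FPKM at 100 µg and 33.3, 49.4 and 42.8 at 200 µg. The class I transactivator, Nlrc5, was 17.9, 15 and 17.2 FPKM at 100 µg and 11.9, 12.7 and 7.997 at 200 µg. All 4 were lower at 200 µg without overlap, as were Tap2, Tapbp and Psmb8, which are uncertain because Tap2 overlaps Gm15821, Psmb8 overlaps Gm20496 and Tapbp shares transcripts with Zbtb22. That made 5 of 11 class I and 2 of 7 class II genes lower without overlap (background 5.94%). Without 100 µg replicate 3 the medians were -0.39 and -0.29. The 1 member that then passed, Erap1, was higher at 200 µg (7.96, 8.2 and 18.9 FPKM at 100 µg and 14.6, 14.9 and 16.5 at 200 µg; it overlaps Cast). The interferon response list had 16 of 20 negative changes (median -0.25, or -0.08 without 100 µg replicate 3), from medians of 0.32 at 100 µg and 0.10 at 200 µg against untreated tumor. Isg15 was 228, 198 and 269 FPKM at 100 µg and 106, 222 and 111 FPKM at 200 µg, with an overlap through 200 µg replicate 2.

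Microglial markers had a median change of -0.23 over 9 tested genes, which was 0.00 without 100 µg replicate 3. Microglial Tmem119 fell to a low level at both doses, 51.2, 91 and 157 FPKM untreated, 144, 118 and 61.6 at 50 µg, 7.997, 4.83 and 17.8 with 100 µg and 3.95, 4.33 and 7.42 with 200 µg, and 81.7% of its fall at 200 µg was present at 100 µg. The 12 microglial markers summed to 47.1, 47.2 and 68.7 FPKM at 100 µg and 62.8, 56.8 and 38.7 FPKM at 200 µg, which overlapped, against 122, 144 and 222 FPKM untreated. Tmem119 is part of this sum, so the fall of the sum is largely that of Tmem119. Over the 9 tested markers the median difference from untreated tumor was -0.33 at 100 µg and -0.65 at 200 µg. Of 16 tested monocyte and macrophage markers 12 had a positive change (median 0.19, or 0.28 without 100 µg replicate 3). Lysozyme (Lyz2), made by macrophages and neutrophils, was 62.7, 135 and 84.6 FPKM at 100 µg and 219, 161 and 172 FPKM at 200 µg without overlap (adjusted p = 0.57, limma). Acod1, which makes the macrophage metabolite itaconate, fell against untreated tumor and overlapped between doses (19.4, 23.2 and 36.6 FPKM untreated, 4.1, 4.999 and 13.4 at 100 µg, 7.24, 6.33 and 12.5 at 200 µg). Of 16 T and NK cell markers 7 were tested, with a median change of -0.07.

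Mitosis genes had mostly positive changes and DNA replication genes did not. Of 24 mitosis genes 21 had a positive change (median 0.31, and 0.54 without 100 µg replicate 3), from -0.41 at 100 µg and -0.11 at 200 µg against untreated tumor. Every member overlapped (background without overlap 7.39% higher and 5.94% lower), and none had an unadjusted p under 0.05 (background 5.3% higher and 3.6% lower). Top2a, the topoisomerase of dividing cells, was 25.7, 30.3 and 63.4 FPKM at 100 µg and 76.7, 71.4 and 30.4 FPKM at 200 µg, so that 100 µg replicate 3 and 200 µg replicate 3 each lay among the values of the other group. DNA replication genes had a median of -0.02 over 24, and -0.38 against untreated tumor at each dose.

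Cytosolic ribosomal protein genes had 20 of 24 negative changes (median -0.37), and at an unadjusted p under 0.05, 4 were lower (background 3.6%) and 2 higher (background 5.3%). Rps19 was 91.4, 179.7 and 81.3 FPKM at 100 µg and 29.9, 42.5 and 44.2 FPKM at 200 µg, without overlap and with a change of -1.50 (-2.27 to -0.73, adjusted p = 0.45, limma). Outside this list, the mitochondrial ribosome subunits Mrps28 and Mrpl52 were lower without overlap. Mrpl52 was 31.6, 33.4 and 21.9 FPKM at 100 µg and 2.78, 8.52 and 11.3 at 200 µg. Both were picked for having among the smallest p between doses of all lower genes, which favors groups without overlap. Genes of the mitochondrial ribosome were not tested as a set. Short genes in general had lower changes. Over 5 equal groups of genes by exonic length, from a median of 997 to one of 9150 bases, the median change was -0.05, -0.02, 0.02, 0.08 and 0.15. Within the 100 µg group the trend was steeper. There the median difference of replicate 3 from the mean of replicates 1 and 2 was -0.13, -0.07, 0.05, 0.16 and 0.35. The nuclear long non-coding RNAs and small RNA hosts, listed as a sign of RNA handling, had a median of -0.57 over 8 genes. Without 100 µg replicate 3 it was -0.90, and Malat1 and Neat1 then passed as lower. Malat1 was 207, 279.9 and 54.4 FPKM at 100 µg and 77.5, 127 and 68 at 200 µg, and Neat1 79.9, 70.01 and 30.2 FPKM at 100 µg and 33.3, 42.2 and 39.3 at 200 µg, with 100 µg replicate 3 the lowest of its group in both. The part of length and RNA handling in these differences was not tested, apart from removing each library's trend on length, which left the medians of the ribosomal and mitosis lists at -0.36 and 0.28.

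Among brain lineage lists, few genes differed without overlap. Oligodendrocyte markers had a median of 0.00 over 11 between doses, from -0.81 and -0.83 against untreated tumor. In the precursor list 8 of 10 had a negative change (median -0.17), and Bcan, the brain proteoglycan brevican, was 33.2, 16.6 and 17.8 FPKM at 100 µg and 13.1, 13.2 and 9.45 FPKM at 200 µg. The neuropeptide precursor gene Vgf, a responding gene that fell, was 78.9, 243 and 229 FPKM untreated, 157, 82.3 and 47.1 at 50 µg, 50.6, 48.1 and 17.3 with 100 µg and 14.8, 15.9 and 15.3 with 200 µg, with a change between doses of -1.14 (-2.34 to 0.06) that did not pass. Hbb-bs and Hba-a1, the globins of red blood cells left after perfusion, were highest at 200 µg in replicate 3, Hbb-bs at 33.3, 5.7 and 18.5 FPKM at 100 µg and 18.2, 21.3 and 114 FPKM at 200 µg.

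**Figure D5:**
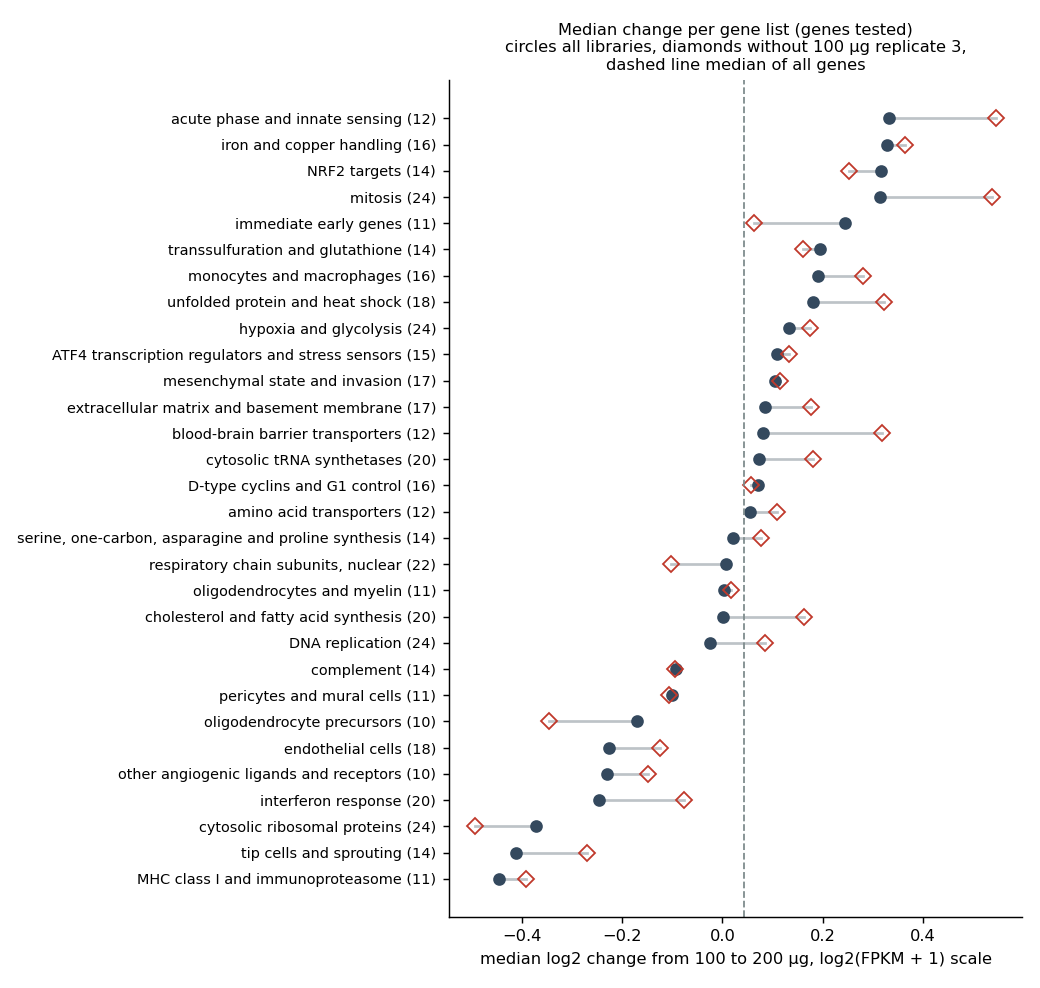
Median log2 change from 100 to 200 µg for every gene list with at least 10 tested members (number in brackets), with all libraries (circles) and without 100 µg replicate 3 (open diamonds); the dashed line is the median of all genes, 0.04. Acute phase, iron and copper, NRF2 and mitosis lists lie highest at 0.31 to 0.33, and MHC class I, tip cell and ribosomal lists lowest at -0.37 to -0.44.

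The 10 genes with the smallest p between doses in each direction, taken among those detected in all 6 libraries and free of neighbors and copies, did not pass (adjusted p 0.15 to 0.55, limma). In each of the 20 the groups did not overlap (background 7.39% higher and 5.94% lower), which choosing by the smallest p favors. Higher at 200 µg was Plin4, a coat protein of lipid droplets (0.0514, 0.0294 and 0.488 FPKM at 100 µg and 2.99, 5.06 and 2.14 at 200 µg). So were the myo-inositol carrier Slc5a3 (5.32, 6.3 and 5.26 FPKM at 100 µg and 14.7, 16.3 and 12.3 at 200 µg) and Twsg1, a secreted binder of BMPs (10.9, 12.9 and 14.8 FPKM at 100 µg and 24.3, 26.7 and 21.3 at 200 µg). The others were Tyw3, Cpne3, Alg5, Gna13 and Gm4544 beside Mmp12 and Mr1, with changes of 0.65 (Gna13) to 1.85 (Plin4). Plin4 was 0.153, 0.0387 and 0 FPKM untreated and 0.0423, 0 and 1.22 FPKM at 50 µg, below every library at 200 µg. Lower was Ap2m1, the cargo-binding subunit of the clathrin adaptor AP-2 (30.7, 27.6 and 28.8 FPKM at 100 µg and 17.8, 11.6 and 14.1 at 200 µg), whose transcripts at 200 µg ran on into Gm15760. So were the sulfotransferase Chst1 (3.0005, 2.82 and 2.09 FPKM at 100 µg and 1.48, 0.983 and 0.398 at 200 µg) and Rpp21, a subunit of ribonuclease P (16.9, 21.7 and 8.35 FPKM at 100 µg and 2.74, 6.53 and 2.46 at 200 µg). Mrps28, Mrpl52, Rps19, Trafd1, Vps9d1, Slc35a4 and Ccdc124 completed them, with changes of -0.74 (Trafd1) to -2.19 (Mrps28). Of the 20, 6 also responded against untreated tumor (background 1.79%): Mmp12, Mr1, Gm4544, Mrps28, Vps9d1 and Slc35a4, each in the direction of its change between the doses. Both tests share each gene's estimate of spread, and choosing by a low p favors a small one, so this count leans high.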

How the data were processed

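RNA-seq transcripts assembled by the authors were read for 12 GL261 tumor libraries, 3 each untreated and at 50, 100 and 200 µg, and 3 of healthy brain for marker levels only. STAR, Cufflinks and the mm10 build are named by the submitters' processing notes, without versions. The deposited files list each library's own transcripts with their FPKM, fragments scaled to transcript length and library size, computed by the authors. These are not counts, and no library totals were used, so depth is given as the deposited coverage per FPKM.

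Transcripts were matched to the exons of GENCODE M21 genes without regard to strand with bedtools 2.31.1 and Python 3.11.15. A gene's value was the sum of FPKM times the share of its exonic length covered. Transcripts were found for 23633 of 55536 genes, and 14014 that averaged at least 1 FPKM in the tumor libraries were tested. limma 3.58.1 in R 4.3.3 was fitted to log2(FPKM + 1) with 1 mean per tumor group, tested two-sided, and Benjamini-Hochberg adjusted over all tested genes, with 0.05 as the threshold. The fit was tested on simulated data. A 3 against 3 exact permutation test cannot go below 0.1 and was not used.

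Genes were marked uncertain where at least 25% of their value in at least 2 libraries came from transcripts covering 50% or more of another gene, where 10% of their exons overlapped another gene, or where minimap2 2.31-r1302 found 95% identity over 50% of their length with another gene. That held for 5427 tested genes (38.7%), and named genes are free of it unless stated.

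Named genes were the 10 per direction with the smallest p between doses, the 5 largest responses per direction in each class, the VEGF genes and called or most changed list members. Others were named after their values were seen. The members and the 50 gene lists were chosen with earlier results of these data known. Alternatives covered the gene value, pseudocount, filter, scaling, prior, samples, replicate block, agent tag, assembly pieces and joined genes, with gene length added after the data were seen.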

Additional observations from a re-analysis of the deposited data

How the results depend on the processing

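The median change of the responding genes from 100 to 200 µg kept its sign under every alternative run, at 0.23 to 0.49 for those that rose and -0.16 to -0.38 for those that fell. The counts did not hold. Changes between doses under the few-pieces term, given below, compare the 200 µg libraries with 100 µg replicate 3 alone. Genes that passed between the doses numbered 1 with a pseudocount of 0.1 FPKM, 1 with a mean of at least 5 FPKM, 3 with limma's trend and robust options, 11 with only the 6 libraries, 2 among genes not joined, 24 with a few-pieces term, which sets apart 100 µg replicate 3 and the 200 µg libraries, 582 without the 4 libraries whose tag disagrees or is missing and 1561 grouped by the tag; leaving out 1 library gave 1 to 673. For 100 µg against untreated, 13 became 4 with the plain sum of FPKM, 6 with a pseudocount of 5 FPKM, 23 with no filter, 6 with a mean of at least 5 FPKM, 8 by the tag, 40 without the 4 libraries, 34 with the few-pieces term, 4 with the length trend removed and 0 to 35 without 1 library. For 200 µg against untreated, 475 became 61 with the plain sum, 956 without the 4 libraries, 34 with the few-pieces term and 35 to 1241 without 1 library.

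Responding genes numbered 67 with the plain sum, 73 by the tag, 69 with the few-pieces term, 537 with the share of pieces as a covariate and 28 to 549 without 1 library. Growing genes numbered 1 with a pseudocount of 0.1 FPKM, with a mean of at least 5 FPKM or with responders from the mean of 50, 100 and 200 µg, 21 by the tag, 55 without the 4 libraries, 11 with the few-pieces term and 1 to 30 without 1 library. Receding genes numbered 2 with the plain sum, 2 by the tag, 10 without the 4 libraries and 0 to 8 without 1 library. Bounded genes numbered 0 with the plain sum, 18 and 114 with pseudocounts of 0.1 and 5 FPKM, 88 with no filter, 19 with a mean of at least 5 FPKM, 18 by the tag, 1 with the few-pieces term, 50 with the covariate, 51 with the length trend removed, 156 with the 2-fold bound, 3 with responders from all 3 doses and 2 to 100 without 1 library. Where the 100 and 200 µg groups differed in size, the choice of responding genes was not independent of the change between doses. The cause of these shifts was not tested.

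Replicate numbers were not treated as pairs in the main fit. Libraries with the same number at 100 and 200 µg deviated together at r = 0.0421, 0.0283 and 0.0785, each the highest for its 200 µg library. These small values do not settle whether the numbers pair the samples. With the replicate block, 2 genes passed between doses, 0 at 100 µg, 128 responded, 1 was growing and 13 were bounded.

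The change between doses took the other sign under at least 1 alternative in 80 of the 242 genes tabulated, among them Nupr1, Atf5, Gstm1, Nrp2, Acot2, Malat1 and Top2a. Of 56 genes followed one by one, 4 VEGF genes did so in 18 values. Vegfa was 0.15 by the tag, 0.17 with the few-pieces term and -0.20 to 0.22 without 1 library. Flt1 was -0.18 with the few-pieces term, -0.072 with the length trend removed and -0.040 to 0.22 without 1 library. Kdr was 0.17 by the tag, 0.34 without the 4 libraries and -0.49 to 0.087 without 1 library. Nrp1 was 0.043 by the tag, 0.03 without the 4 libraries, 0.059 with the covariate and -0.14 to 0.061 without 1 library. The responses to both doses followed one by one kept their direction under every alternative run, and 904 of their values no longer passed beside 1312 that did. List medians kept their sign under every alternative for the acute phase, NRF2, transsulfuration, ribosomal and both MHC lists. Under at least 1 alternative that of the endothelial list reached 0.092, tip cells 0.023, interferon response 0.064, microglia 0.29, iron and copper -0.10 and mitosis -0.17.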
